A study of Mus musculus with 45 samples.

Results

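The distal end of mouse chromosome 11 was gained in 8 of 40 mammary tumors from models other than MMTV-Myc, which is 20% with an exact Clopper-Pearson 95% confidence interval of 9.05% to 35.6%. A tumor was counted as gained when the mean log2 ratio of its 365 probes in chr11:112480026-121798632 (mm8), a stretch of 9.32 Mb, was at least 0.2. The log2 ratio compares tumor DNA with reference DNA at each probe and was centred on the median of the autosomal probes of the array. The tumors were thus selected on these distal values, which are given as a description with no test. The region was laid out by the study on MMTV-Myc tumors, and its use in the other models was chosen with results of these data known. Labels and methods put the tumor in the Cy5 channel and the reference in Cy3, but the ratios in the files ran the other way. All signed values are therefore Cy3 over Cy5, the direction in which 740 of 755 intervals called by the authors (98.0%) had the same sign as the array, in a majority of the intervals of each of the 45 arrays. With the dyes as labelled, the sign of every log2 ratio and of every difference between log2 ratios turns, and gained and lost shares change places.

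Array comparative genomic hybridization compares the amount of DNA at many positions between a tumor and a normal reference. Mouse autosomes have their centromere at one end, so that a distal segment is the part farthest from it. Loss or gain of whole chromosomes follows faulty segregation in mitosis, whereas gain of a segment needs a break within the chromosome. The distal end of mouse chromosome 11 corresponds to the distal long arm of human chromosome 17, and it carries genes for adaptors, cell cycle enzymes and inhibitors of apoptosis such as Grb2, Tk1 and Birc5.

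The series holds 45 arrays, 1 per primary mammary tumor of female mice, each hybridised against DNA that the labels call pooled spleen and, in the characteristics of the same channel, normal mammary tissue. Both kinds of tumor, with and without the distal gain, occurred in 3 models. BRCA1fl/fl;p53+/-;MMTV-cre tumors (BRCA1-/-;p53+/- below) lose the floxed Brca1 alleles in cells in which the MMTV promoter, active mainly in mammary epithelium, drives Cre, and carry 1 mutant p53 allele. MMTV-PyMT and MMTV-Wnt1 tumors express the polyomavirus middle T antigen and the Wnt1 ligand from the same promoter. Tumors without the gain also came from the models C3(1)/SV40 T/t-antigens (C3(1)-Tag), MMTV-Her2/neu, MMTV-H-Ras (MMTV-HRas) and p53fl/fl ;MMTV-cre transplant (p53-/-), the last of which the labels call a transplant. MMTV-c-Myc (MMTV-Myc) tumors are used only for comparison. Ages are not given, and nothing beyond the sample names says that tumors came from separate animals, so p-values measure the spread between these arrays, whose number limits the precision. The DNA came from whole tumors, so that fewer cells with a gain and fewer copies per cell cannot be told apart.

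Among the 8 tumors with the gain, 2 arrays stand apart from their groups. Wnt_4635 had a log2 ratio of 0.07 at the probe in Wnt1, the transgene of its model, where the other 4 MMTV-Wnt1 tumors ranged from 1.07 to 1.5, so it is written below as the tumor labelled MMTV-Wnt1. PyMT_11570 had the highest probe noise of the 8, a standard deviation of 0.445 against 0.159 to 0.357 in the other 7, and its log2 ratios followed those of PyMT_11567, a tumor without the gain on the same slide (Pearson r = 0.87 over 40608 probes). Autosomal 1 Mb bins correlated above 0.9 in 2 of 990 pairs of arrays, each a C3(1)-Tag and an MMTV-Her2/neu tumor without the gain. Among the 8 tumors the highest correlation was that of PyMt341 and PyMt342, at 0.470 over bins and 0.706 over probes. The 45 arrays lie on 18 slides and were scanned on 10 dates, and the 8 tumors with the gain lie on 7 slides scanned on 7 dates.

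By model, the gain was present in 3 of 5 BRCA1-/-;p53+/- tumors (60%, 95% interval 14.7% to 94.7%), in 4 of 9 MMTV-PyMT tumors (44.4%, 13.7% to 78.8%) and in 1 of 5 tumors labelled MMTV-Wnt1 (20%, 0.505% to 71.6%). It was not found in 5 C3(1)-Tag, 5 MMTV-Her2/neu or 5 MMTV-HRas tumors, which allows a share of up to 52.2% in each of these models, or in 6 p53-/- tumors, which allows up to 45.9%. These intervals cover counting error only and overlap widely. The authors' own calls instead put 100% of the region's probes in gains in the C3(1)-Tag tumor C3TAg_5RPT, whose distal mean here was -0.0675. In the BRCA1-/-;p53+/- model the distal means were 0.682 in Brcap53_682, 0.623 in Brca_14 and 0.429 in Brca_54. In MMTV-PyMT they were 0.461 in PyMt342, 0.420 in PyMT_11570, 0.374 in PyMt341 and 0.364 in PyMt3. Wnt_4635 had the lowest value inside the threshold, 0.287, and Brca_42 the highest outside it, 0.0915, so that no tumor lay between these values. The 32 tumors without the gain reached down to -0.355.

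**Figure D1:**
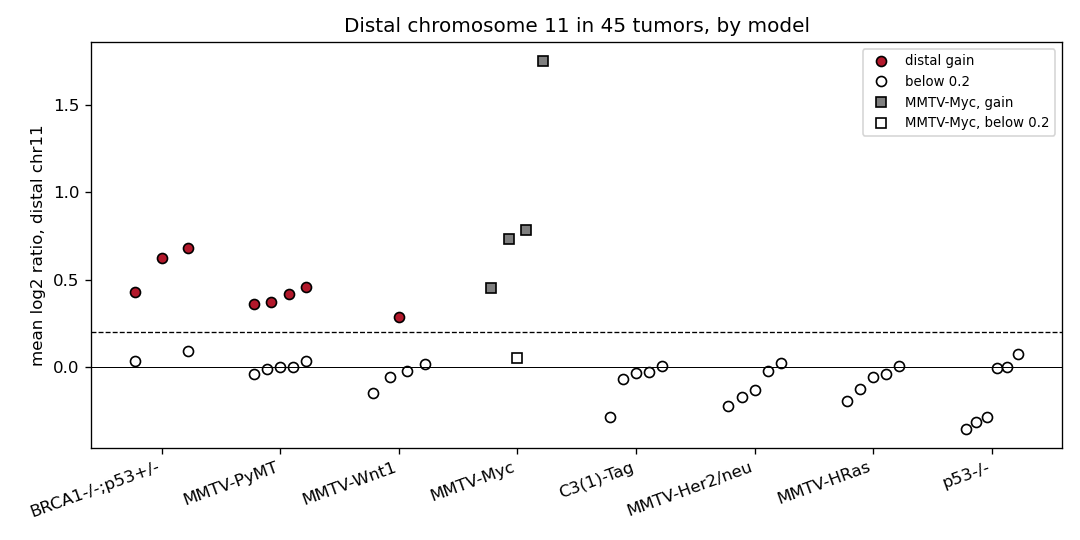
Mean log2 ratio of the distal chromosome 11 region (vertical axis, Cy3 over Cy5) for each of 45 tumors, by model (horizontal axis). Red points are the 8 tumors with the gain, from 0.287 to 0.682, open points the 32 below the threshold of 0.2 (dashed line), and squares the MMTV-Myc tumors.

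The extent of the gain along chromosome 11 varied among the tumors. In 3 of the 4 MMTV-PyMT tumors it took in the whole measured chromosome, a stretch of 118.6 Mb. The mean log2 ratio of that stretch was 0.465 in PyMt342, 0.395 in PyMt341 and 0.417 in PyMt3. The 2614 probes before the distal region (the proximal part below) had means of 0.465, 0.398 and 0.424 in these tumors, against distal means of 0.461, 0.374 and 0.364, and 99.8% to 100% of them lay in gained segments. A gained segment is a run of at least 5 probes with a mean of at least 0.2. The distal region was thus no higher than the rest of the chromosome in these 3 tumors.

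In the 3 BRCA1-/-;p53+/- tumors the gain was partial and began at a different position in each. The distal gained run started at 72267061 in Brca_54, which is 40.2 Mb before the region, at 74660513 in Brcap53_682, 37.8 Mb before it, and at 102621434 in Brca_14, 9.86 Mb before it. The runs were 49.4, 47.0 and 19.03 Mb long, with mean log2 ratios of 0.346, 0.523 and 0.578. Each of these tumors also had loss on the proximal part, a state seen in none of the 4 MMTV-PyMT tumors beyond 0.230% of the proximal probes. Lost segments covered 55.4% of the proximal probes in Brcap53_682, 42.2% in Brca_54 and 33.1% in Brca_14. In the tumors of this model without the distal gain they covered 48.1% in Brcap53_503 and 0.383% in Brca_42. In Brcap53_682 a single lost segment with a mean of -0.33 ran from the first probe to 74648789, next to the start of the gain. Brca_14 was gained again at the centromeric end, from 3100146 to 20550066, with a mean of 0.32.

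From 80 to 40 Mb before the region, 891 probes had means of 0.450, 0.397, 0.397 and 0.133 in PyMt342, PyMt341, PyMt3 and PyMT_11570, and of -0.318, -0.260 and -0.206 in Brcap53_682, Brca_14 and Brca_54. All 4 MMTV-PyMT tumors were above 0 there and all 3 BRCA1-/-;p53+/- tumors below it, a difference that was not tested. Over the whole proximal part the mean was 0.360 ± 0.140 (SD, n = 4) in MMTV-PyMT and 0.015 ± 0.048 (n = 3) in BRCA1-/-;p53+/- tumors. The groups did not overlap, but the difference of 0.345 had p = 0.0571 in a two-sided exact permutation test over 35 assignments and did not pass the threshold of 0.05. This comparison was chosen after the values were seen.

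In the tumor labelled MMTV-Wnt1, Wnt_4635, the run started at 97095358, 15.4 Mb before the region, and was 24.6 Mb long with a mean of 0.288. The authors' own intervals instead covered all of chromosome 11 in this tumor as gained. PyMT_11570 had 4 separate gained pieces, of 2.78, 3.22, 1.30 and 1.17 Mb, the first of them 6.04 Mb before the region. They held 70.1% of the probes of the region, and its proximal mean was 0.154. None of the authors' intervals called a gain in the region in PyMT_11570.

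**Figure D2:**
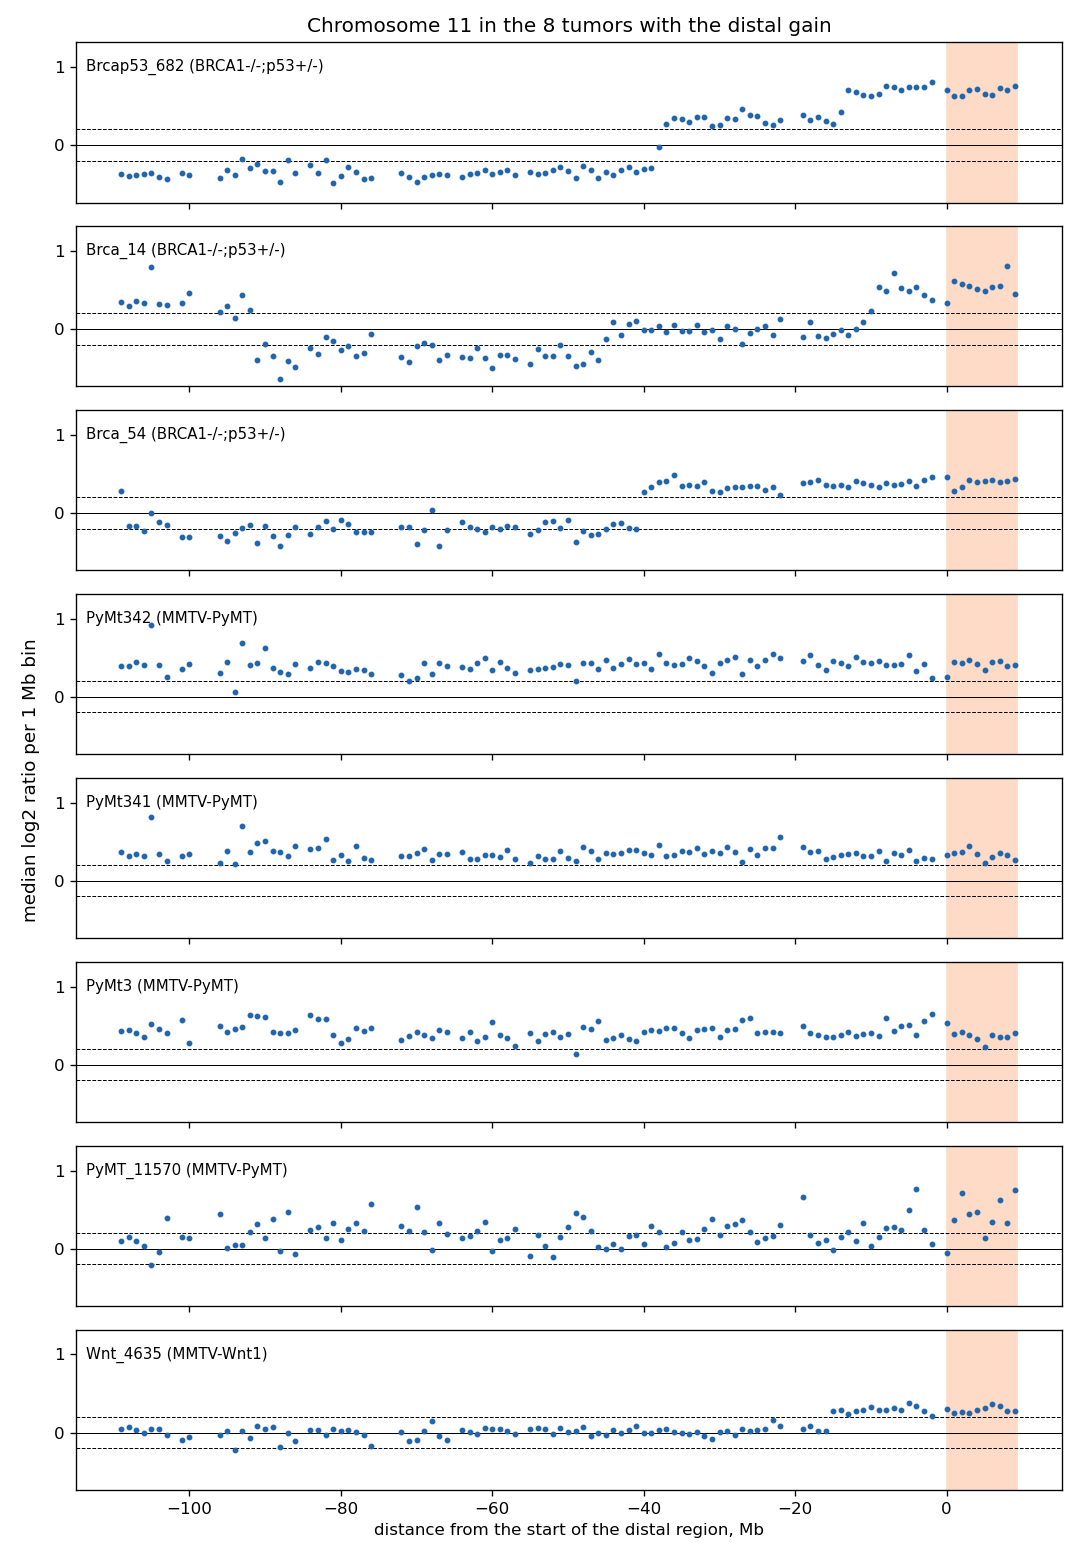
Median log2 ratio of each 1 Mb bin of chromosome 11 (vertical axis) against the distance from the start of the distal region in Mb (horizontal axis; shaded, the region itself), 1 panel for each of the 8 tumors with the gain; dashed lines mark 0.2 and -0.2. PyMt342, PyMt341 and PyMt3 are high along the whole chromosome, whereas Brca_54 and Brcap53_682 step up from a lost part 40.2 and 37.8 Mb before the region, and Brca_14 steps up from a part near 0 at 9.86 Mb before it.

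The part gained in common was distal. All 8 tumors were gained in 6 of the 10 bins inside the region and in 2 of the 96 bins before it. The bins shared by all 8 formed 3 runs, from 107000001 to 109000000, from 114000001 to 117000000 and from 119000001 to 122000000. At least 7 tumors were gained in all 10 bins inside the region and in the 8 bins from 103000001 to 111000000. Because the rule required a high mean inside the region, the larger counts there are a consequence of the choice of tumors. Within the region the level was not even in every tumor. The spread was widest in PyMT_11570, from -0.0573 at 112000001 to 113000000 up to 0.753 at 121000001 to 122000000. In Brca_14 the bins ranged from 0.332 at 112000001 to 113000000 up to 0.809 at 120000001 to 121000000, whereas in Wnt_4635 they ranged from 0.248 to 0.364.

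Of 31 landmark genes listed along chromosome 11, 29 had a probe on the array. The value of a gene is the mean log2 ratio of its probes, of which most genes have 1 or 2, so single genes are far noisier than the region. Inside the region the median over the 8 tumors ran from 0.101 for Itgb4, an integrin subunit of epithelial adhesion structures, to 0.719 for Jmjd6, a dioxygenase whose probe the files name Ptdsr, and the median of the 14 medians was 0.449. For Jmjd6 the single probe read 0.765 in Brcap53_682, 1.12 in Brca_14, 1.04 in PyMt342, 0.486 in Brca_54, 0.791 in PyMt341, 0.673 in PyMt3, 0.436 in Wnt_4635 and -0.258 in PyMT_11570. It was thus at least 0.2 in 7 of 8 tumors and below 0 in the noisiest, and it was at least 0.2 in 6 of the 32 tumors without the gain. Sumo2, a small ubiquitin-like modifier, was at least 0.2 in all 8, from 0.283 in Wnt_4635 to 0.942 in PyMT_11570, and in 4 of the 32 others. Grb2, the adaptor that links receptor tyrosine kinases to Ras, reached 0.2 in 7 tumors, with 1.17 in Brca_14 and 0.114 in Wnt_4635 as the extremes, and in 6 of the 32 others.

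Tk1, a thymidine kinase of the S phase, and Birc5, which codes for survivin, an inhibitor of apoptosis, each reached 0.2 in 6 of 8 tumors, with medians of 0.501 and 0.540, and in 1 and 4 of the 32 others. Birc5, with 1 probe, read -0.126 in PyMt3, in which the run over the whole chromosome had a mean of 0.417. Ube2o, a ubiquitin-conjugating enzyme, had a median of 0.443, and Fbf1, a protein of the base of the cilium, one of 0.368, with 7 tumors at 0.2 or above for each, and 1 of the 32 others for each. Socs3, an inhibitor of cytokine signalling, had the highest single value of these genes, 1.65 in Brcap53_682, and a median of 0.508, but it also read at least 0.2 in 8 of the 32 tumors without the gain. Timp2, an inhibitor of metalloproteinases measured by 4 probes, reached 0.2 in 7 tumors with a median of 0.456 and in 0 of the 32 others. Cbx2, a Polycomb protein, with 1 probe, reached it in 3 tumors and in 0 of the 32 others, and Fasn, the fatty acid synthase, near the end of the chromosome, in 4 tumors and in 1 of the 32 others.

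Single genes before the region did not always follow the segment they lay in. Egfr, the receptor of epidermal growth factor, 95.8 Mb before the region, was -0.481 in Brcap53_682 and -0.468 in Brca_54 but 0.380 in PyMt342, 0.313 in PyMt341, 0.608 in PyMt3 and 0.534 in PyMT_11570. It read -0.001 in Brca_14, inside a gained run with a mean of 0.322, and 0.005 in Wnt_4635. Map2k4, a kinase of the stress-activated pathways, read 0.193 in Brcap53_682, inside a lost segment with a mean of -0.33. Trp53, which codes for p53, 43.1 Mb before it, was -0.200, -0.242 and -0.114 in Brcap53_682, Brca_54 and Brca_14 and 0.205 to 0.399 in the 4 MMTV-PyMT tumors. The median over the 32 tumors without the gain was -0.130, so values below 0 at these 2 probes were common in tumors of other models. Nf1, a negative regulator of Ras, lay within the gain of Brcap53_682 and Brca_54, at 0.442 and 0.352, and was -0.346 in Brca_14, in which the gain began farther on. Erbb2, the receptor gene amplified in HER2-positive human breast cancer, reached 0.2 in 6 of 8 tumors, with 0.130 in Brca_54, inside its gained run, and 0.703 in PyMt342 as the extremes, and in 6 of the 32 tumors without the gain. In Brca_14 it read 0.290, before the start of the gain. Prkca, protein kinase C alpha, 4.73 Mb before the region, reached it in all 8, from 0.278 to 0.908, and in 3 of the 32 others. The median of the medians of the 15 genes before the region was 0.284.

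The engineered Brca1 locus lay inside the distal gained run of Brcap53_682 and Brca_54 and before that of Brca_14. The Brca1 probe at chr11:101340828-101340887 (mm8) read -3.58 in Brcap53_682, -5.14 in Brca_14 and -4.76 in Brca_54, a mean of -4.49 ± 0.81 (SD, n = 3), whereas the other 5 tumors with the gain averaged 0.48 ± 0.28. The second Brca1 probe, at chr11:101314063-101314118, averaged 0.51 ± 0.33 in the same 3 tumors. The first probe was low in all 5 tumors of this model, from -5.14 to -1.69, and in none of the 40 other arrays, of which the lowest read -0.64. The 5 probes that follow the low Brca1 probe, up to 101446470, averaged 0.537 in Brcap53_682, 0.102 in Brca_14 and -0.142 in Brca_54, so that in Brcap53_682 the low value was limited to that probe. A short stretch of 5 probes from 115235124 to 115263375, over Atp5h and Kctd2, was high in all 5 BRCA1-/-;p53+/- arrays. It read 1.36, 1.97 and 1.49 in Brcap53_682, Brca_14 and Brca_54, and 0.832 and 1.54 in Brcap53_503 and Brca_42, the 2 tumors without the distal gain. Among the other 5 tumors with the gain it read 0.602 in PyMt342, 0.553 in PyMt3, 0.535 in PyMt341, 0.348 in Wnt_4635 and 0.099 in PyMT_11570.

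MMTV-Myc tumors, of which 4 of 5 met the same rule, were compared with the 8 tumors. The run that reached the region was 9.17 Mb long in Myc_04004021 and began at the first probe of the region, was 6.98 Mb long in Myc_04004022 and 17.9 Mb long in Myc_043508, which had 3 more gained runs before it, of 5.04, 0.247 and 0.299 Mb, and fell into 3 pieces in Myc_04005648. Proximal means were -0.0125, 0.164, 0.127 and 0.110 in these 4 tumors. The 8 tumors of the other models had a proximal mean of 0.196 ± 0.201, which exceeded the mean of the MMTV-Myc tumors, 0.097, by 0.099 (two-sided exact permutation test, p = 0.40). At least 90% of the proximal probes lay in gained segments in 3 of the 8 tumors and in 0 of the 4 MMTV-Myc tumors. The authors' gained intervals also held 99.9% of the proximal probes in Myc_04004022 and 100% in Wnt_4635, so these counts depend on the calls used.

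On the other autosomes, chromosome 15 was higher in the tumors with the distal chromosome 11 gain. Gain of chromosome 15, which carries Myc, is a recurrent change in mouse tumors. Its mean log2 ratio was 0.517 in Brca_54, 0.434 in PyMt3, 0.394 in PyMt341, 0.352 in Brca_14 and 0.309 in Brcap53_682, and 98.2% to 100% of its probes were in gained segments for these 5. It was 0.145 in Wnt_4635, 0.131 in PyMT_11570 and 0.103 in PyMt342, where 0%, 39.0% and 0.368% of the probes were in gained segments. In the 11 tumors of the same models without the gain it ran from -0.038 to 0.082, with a median of -0.003, and no such tumor had 50% of the chromosome in gained segments. By this mean all 8 tumors with the gain were above all 11 others. By the median of the probes they were not, since PyMt342 had 0.0489 and Brcap53_503, without the gain, 0.0771.

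Within models the difference was 0.268 ± 0.046 (SE), and p = 0.000159 in a two-sided exact permutation test of the gain within models, the smallest that its 6300 assignments allow. Adjusted over the 18 autosomes tested it was 0.00286, and this was the only chromosome called (1 of 18, 5.56%). By model, the difference was 0.263 in MMTV-PyMT and 0.346 in BRCA1-/-;p53+/- tumors. It was 0.165 in tumors labelled MMTV-Wnt1, where it rests on Wnt_4635 alone. Without PyMT_11570 and Wnt_4635 the difference was 0.323 (adjusted p = 0.0321, exact permutation test). Under normexp background correction it was 0.179 with an adjusted p of 0.104 in the exact permutation test. Within model and scan date it was 0.334, with an exact p of 0.0104, the smallest its 96 assignments allow, and an adjusted p of 0.188. The file headers give 2 codes for the dye normalization, and the second was used for 6 arrays, which are PyMT_11570, PyMT_11567 and the 4 MMTV-Wnt1 tumors without the gain. In the MMTV-Wnt1 model the code and the gain therefore cannot be told apart, and within model and code the difference was 0.295, with an adjusted p of 0.0257 in the exact permutation test.

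Of the slides, 3 carried tumors of 1 model with and without the gain. On the slide that carried Brca_14 and Brca_54, at 0.352 and 0.517, Brca_42 without the distal gain had a chromosome 15 mean of 0.010. PyMt3, at 0.434, shared its slide with PyMt4_1, at -0.003. PyMT_11570, at 0.131, shared its slide with PyMT_11567, at -0.012. Within model and slide the difference was 0.343, with an exact p of 0.0833, the smallest that its 12 assignments allow, and an adjusted p of 0.375, so that this comparison could not pass the threshold. In the models with no distal gain, gain of at least 50% of chromosome 15 occurred in 7 of 21 tumors, and in the 4 MMTV-Myc tumors with the distal gain the chromosome 15 mean was 0.011 ± 0.035 (SD). Gain of chromosome 15 was therefore not limited to tumors with the distal chromosome 11 gain.

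**Figure D3:**
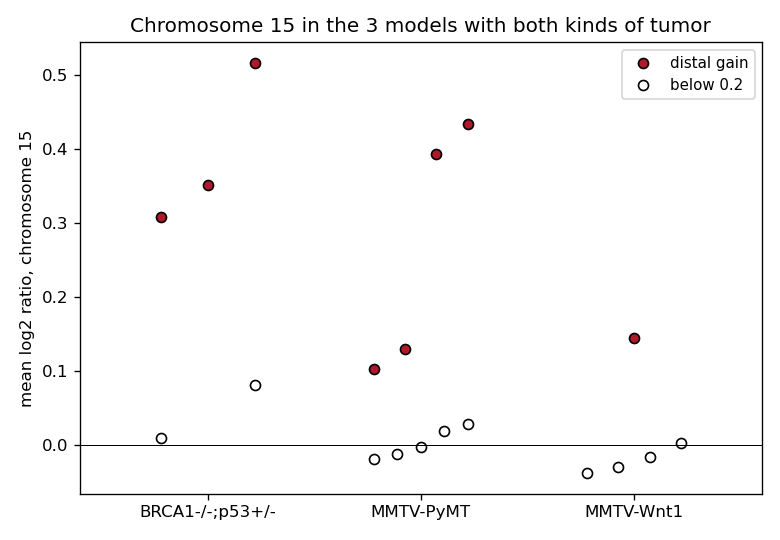
Mean log2 ratio of chromosome 15 (vertical axis) in each tumor of the 3 models that hold both kinds of tumor (horizontal axis), red with the distal chromosome 11 gain and open without it. In each model the red points, from 0.103 to 0.517, lie above all open points, of which the highest is 0.082.

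No 1 Mb bin outside chromosome 11 passed the test across all 40 tumors with equal weights for all arrays. Each bin was fitted with limma on the model and the gain, and of 1951 bins 0 had a Benjamini-Hochberg adjusted p under 0.05 (0.0%), with a smallest adjusted p of 0.285. With array weights estimated in limma, the same 40 tumors gave 45 bins, 43 of them on chromosome 15, with a smallest adjusted p of 0.00706. At an unadjusted p under 0.05 there were 101 bins, 87 higher (4.46%) and 14 lower (0.718%) in tumors with the gain, and 76 of the 87 lay on chromosome 15. All 85 chromosome 15 bins had a positive difference, from 0.164 to 0.395, with a median of 0.264, against a median of -0.0004 over all bins tested. Of the 14 lower bins, 11 lay on chromosome 10. With arrays centred on their density peak in place of the median, limma gave 97 bins higher and 0 lower at the same unadjusted threshold.

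The 40 tumors include 21 of models in which no tumor had the gain. With only the 19 tumors of the 3 models that hold both kinds, the median residual standard deviation of a bin fell from 0.197 to 0.143, and limma called 65 bins higher (3.33%) and 2 lower (0.103%) at an adjusted p under 0.05. All 65 lay on chromosome 15, where they made up 76.5% of its tested bins, and the 2 lower bins lay on chromosome 7, from 128000001 to 129000000 and from 143000001 to 144000000, with differences of -0.18 and -0.17. The number of bins called in this smaller fit, 67, was 15 to 16 without PyMt341, PyMt3 or Brca_42, 22 without Brcap53_503, 27 to 44 without PyMt427, PyMt4_1, PyMt435, PyMt317 or Wnt_4677, and 46 to 83 without any other tumor. With normexp background correction it was 0, with 134 bins at an unadjusted p under 0.05. Without that correction, the smaller fit had 122 bins higher and 151 lower at an unadjusted p under 0.05 in limma.

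The 6 bins with the smallest p that did not adjoin each other were all on chromosome 15. The first, from 13000001 to 14000000 with 5 probes, had a difference of 0.35 ± 0.08 (SE), and values from 0.062 in PyMt342 to 0.672 in Brca_54 against -0.242 to 0.102 in the tumors of the same models without the gain. Its strongest probe lay in Cdh6, a cadherin of cell adhesion. In the bin from 31000001 to 32000000, whose strongest probe lay in Cct5, a subunit of a chaperonin, the difference was 0.34 ± 0.09. The fourth bin, from 61000001 to 62000000, held Myc and had a difference of 0.39 ± 0.12. It had 3 probes, and the Myc probe varied among MMTV-PyMT tumors of both kinds. It read 2.56 in PyMt342, 1.78 in PyMt341, 0.791 in PyMt3 and -0.180 in PyMT_11570 with the distal gain. Without it the values were 3.34 in PyMt435, 2.59 in PyMt427, 0.657 in PyMt4_1, 0.649 in PyMt317 and -0.065 in PyMT_11567. Adjusted p-values of the 6 bins in limma were 0.285 to 0.408.

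Chromosome 3 was the next to chromosome 15, with a difference of 0.090 ± 0.032 (SE) and an adjusted p of 0.0557 in the exact permutation test. It was highest in Wnt_4635, at 0.318, with all probes in gained segments, and in Brca_54, at 0.236. Without Wnt_4635 the difference was 0.039, with an adjusted p of 0.490, and it passed the threshold without Brcap53_503, Brca_14, PyMt4_1, PyMt317 or PyMt427, at 0.0953 to 0.0986. Chromosome 7 was lower by sign, at -0.216 on average in the 3 BRCA1-/-;p53+/- tumors and -0.22 in Wnt_4635, but -0.014 on average in the 4 MMTV-PyMT tumors. The difference for chromosome 7 was -0.099 ± 0.038, with an adjusted p of 0.133, and for chromosome 10 it was -0.098 ± 0.045, with an adjusted p of 0.179. Chromosome 7 passed without PyMt341 and with the median of the probes as the chromosome value, chromosomes 7 and 10 both passed with the mean of the 1 Mb bins, and chromosome 6, with a difference of -0.123, passed without Brcap53_503 or Brcap53_682. The other 14 autosomes had adjusted p-values from 0.343 to 0.885.

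**Figure D4:**
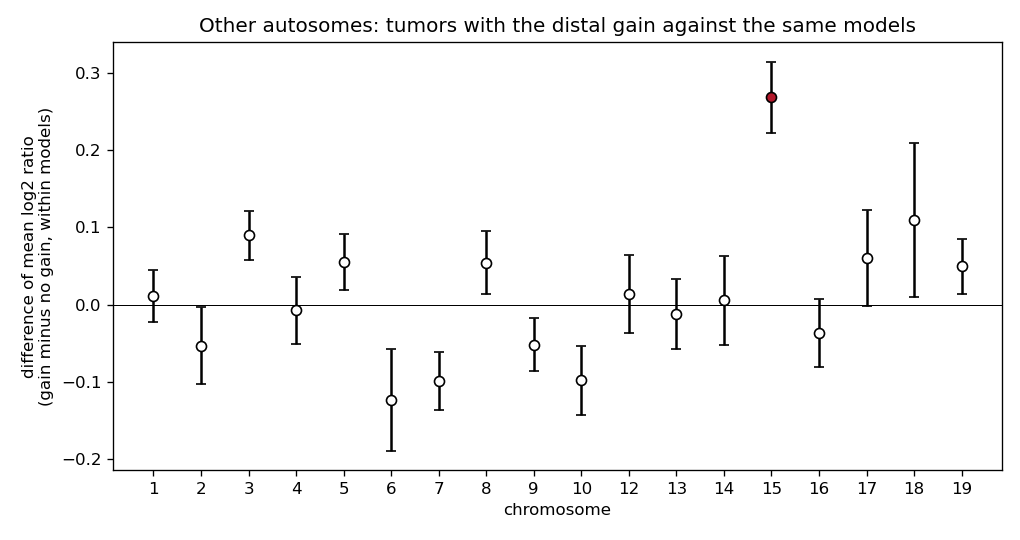
Difference of the chromosome mean log2 ratio between tumors with and without the distal chromosome 11 gain, within models (vertical axis; bars, SE), for the 18 other autosomes (horizontal axis). Chromosome 15, at 0.268 and filled, is the only chromosome with an adjusted p under 0.05 in the exact permutation test.

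An autosome counted as gained or lost when 50% or more of its probes were in segments of that direction, chromosomes 11 and 15 included. A counted change is thus not always one of the whole chromosome. On chromosome 11, 50.9% of the probes were gained and 48.9% lost in Brcap53_682, and 56.4% and 37.0% in Brca_54. On chromosome 4 the shares were 56.1% and 43.9% in Brca_14 and 52.9% and 44.9% in Brca_54. On chromosome 8, counted as lost, 38.3% were gained and 54.9% lost in Brca_14, and 29.6% and 52.3% in Brca_54. In PyMt3 and PyMt341 all chromosome 11 probes were gained. PyMt342 had gain of chromosome 11 alone, PyMt341 of chromosomes 11, 15 and 18, and PyMt3 of chromosomes 11, 14, 15 and 17, with no loss in these 3 tumors. Brca_54 had gains of chromosomes 3, 4, 11, 15 and 17 and 5 losses, Brca_14 had gains of chromosomes 1, 4, 15 and 16 and 5 losses, and Brcap53_682 had gains of chromosomes 6, 11, 13 and 15 and 3 losses. Wnt_4635 had gains of chromosomes 3, 5, 8 and 19 and loss of chromosome 7. No autosome was counted as changed in PyMT_11570. Apart from chromosomes 11 and 15, chromosome 7 was counted as lost in Brca_14, Brca_54 and Wnt_4635. Gains of chromosomes 3, 4 and 17 and losses of chromosomes 8, 12 and 18 were counted in 2 of the 8 tumors each. The chromosome 3 mean was above 0 in all 8 tumors, from 0.020 in PyMt3 to 0.318 in Wnt_4635. By the median of the probes it was -0.036 in PyMt341 and -0.038 in PyMt342. Tumors of the same models without the gain had chromosome 3 means from -0.023 to 0.115, with a median of 0.015. Among tumors of the same models without the gain, Brca_42 also had loss of chromosomes 12 and 18, and Wnt_4676 had gain of chromosome 17. Gain of chromosome 6, counted in Brcap53_682, occurred without the distal gain in Brca_42 and PyMt435.

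**Figure D5:**
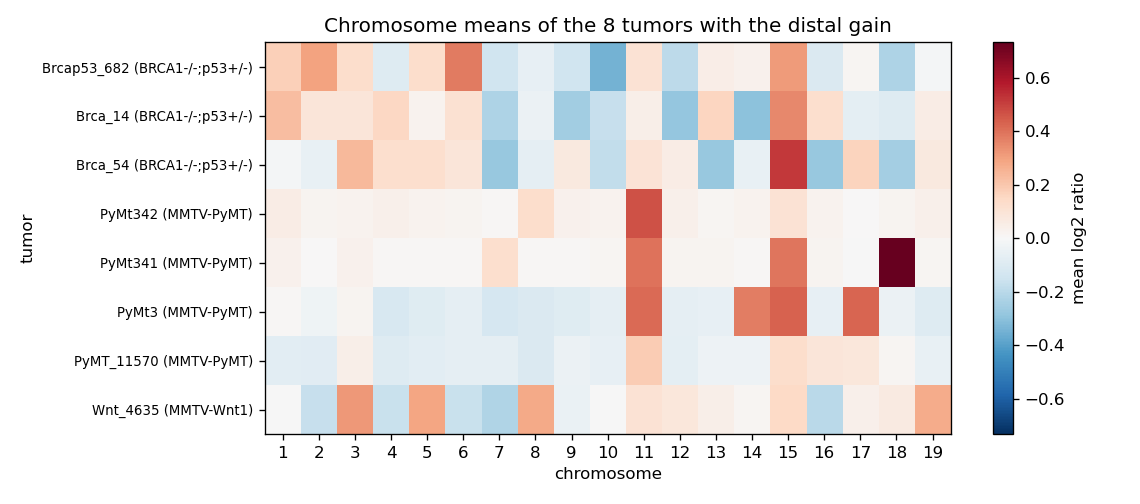
Mean log2 ratio of each autosome (horizontal axis) in the 8 tumors with the distal chromosome 11 gain (vertical axis), from blue (lower than the reference) through white (0) to red (higher). Chromosome 15 is above 0 in all 8 tumors, from 0.103 to 0.517, and the 3 BRCA1-/-;p53+/- tumors and Wnt_4635 have several chromosomes away from 0 where PyMt342, PyMt341 and PyMT_11570 have few.

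The share of the genome outside chromosome 11 that was altered, as the percentage of 1 Mb bins in gained or lost segments, was higher in tumors with the gain than in tumors of the same model without it. It was 59.6% in Brca_54, 56.1% in Brca_14 and 35.4% in Brcap53_682, against 17.3% in Brca_42 and 7.89% in Brcap53_503. Wnt_4635 had 31.4% against 0.103% to 4.46% in the other 4 tumors labelled MMTV-Wnt1. In MMTV-PyMT the 2 kinds overlapped, with 14.2% in PyMt3, 8.51% in PyMt341, 5.13% in PyMT_11570 and 0.308% in PyMt342 against 0.051% to 12.8% in the 5 others. Within models the difference was 17.8 ± 5.23 percentage points (SE), with p = 0.00429 in the two-sided exact permutation test and 0.00833 after adjustment over 3 shares. The gained share differed by 10.4 points (adjusted p = 0.00833, exact permutation test) and the lost share by 7.45 points (adjusted p = 0.0424, exact permutation test). Within model and scan date the difference in the altered share was 17.6 points (exact p = 0.0208), and without PyMT_11570 and Wnt_4635 it was 16.8 points (exact p = 0.0464). Under normexp background correction it was 7.12 points (exact p = 0.059). Chromosome 15 is part of this share, so the results are not independent.

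Models with no distal gain were often more altered, so the difference held only within models. The 32 tumors without the gain had 26.6% ± 26.0 (SD) of their bins altered, against 26.3% ± 23.0 in the 8 with it. The 4 MMTV-Myc tumors with the distal gain had 1.95% ± 3.59. The difference of 24.4 points from the 8 tumors had p = 0.0525 in the exact permutation test (adjusted over 3 shares, 0.0788), and passed the threshold before adjustment without PyMt342, at 28.1 points (exact p = 0.0424), or without PyMT_11570, at 27.4 points (exact p = 0.0485). The MMTV-PyMT tumors with the gain, at 7.05% ± 5.86, lay between the MMTV-Myc and the BRCA1-/-;p53+/- tumors with it, the latter at 50.4% ± 13.1, and the MMTV-PyMT and BRCA1-/-;p53+/- ranges did not overlap.

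Of 45 cancer genes listed on the other autosomes, 42 had a probe in a tested bin. Their bins were higher by sign for 22 genes and lower for 20, against 975 positive of 1951 bins in all, with a median difference of 0.004, and 0 passed the limma test of 1951 bins in all 40 tumors. At an unadjusted p under 0.05, 6 of the 42 genes were higher and 0 lower, where 87 of all 1951 bins (4.46%) were higher. The 42 genes lay in 38 different bins, so these shares do not compare like with like. Of the 6, Birc3 and Yap1 share a bin and Pgr lies in the adjoining bin. Among the tumors with the gain, these bins were high in Wnt_4635 alone, at 3.31 and 2.06. In the fit of the 3 models with both kinds of tumor 2 genes passed, Myc and Wnt1, both on chromosome 15. Of all 1951 bins, 65 (3.33%) passed in that direction in the same fit. The largest differences belonged to 4 genes in 2 bins. The bin of Met, a receptor tyrosine kinase, and Cav1, which codes for caveolin, on chromosome 6 differed by 0.67 ± 0.53 (SE), with 5.28 in Brca_14 and 1.96 in Wnt_4635, and the other 6 tumors between -0.059 and 0.362. The bin of Birc3, an inhibitor of apoptosis, and Yap1, a coactivator of the Hippo pathway, on chromosome 9 differed by 0.57 ± 0.21, with 3.31 in Wnt_4635, and the other 7 tumors between -0.193 and 0.156. These are high values in 1 or 2 tumors and not differences shared by the tumors with the gain.

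The difference between tumors with and without the gain was itself compared between MMTV-PyMT and BRCA1-/-;p53+/- tumors with an interaction term in limma. Of 1951 bins 0 passed at an adjusted p under 0.05, with a smallest adjusted p of 0.0901, and 26 had an unadjusted p under 0.05. Leaving out Brca_14, Brca_54 or Wnt_4675 gave 1 bin each. The BRCA1-/-;p53+/- model held 2 tumors without the gain. On chromosome 15 the median difference was 0.263 in MMTV-PyMT and 0.346 in BRCA1-/-;p53+/- tumors, and all 85 bins were positive in both.

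No difference in array quality passed a test. Within models the probe noise of tumors with the gain was higher by 0.005, with p = 0.922 in the exact permutation test, and the signal over background differed by -0.704 in Cy3 (p = 0.518, exact permutation test) and 0.022 in Cy5 (p = 0.984, exact permutation test).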

How the data were processed

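DNA of 45 mouse mammary tumors was hybridised to Agilent 44K arrays with 2 channels. The authors extracted the arrays with Agilent Feature Extraction (9.5.1.1 in the file headers, 10.7 in the submitters' processing notes) and deposited processed intensity values, already background-subtracted and dye-normalized, and the log10 ratio of Cy5 over Cy3 for each spot. The authors also deposited intervals from their aberration detection, with mean log2 ratios, and those columns were used for the direction and as an alternative. Signs were turned, ratios converted to log2 and centred on the autosomal median, with no loess or quantile step, and control and outlier spots left out. A column of the authors' intervals that holds p-values, and tables of single models, were not used.

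This left 42235 probes (40666 autosomal; mm8), 2057 autosomal bins of 1 Mb with at least 3 probes (median over the probes) and 1951 outside chromosome 11. Each chromosome was split recursively into segments of 5 or more probes where the split statistic passed 6. Bins were tested with limma 3.58.1 (R 4.3.3) with model as a factor, chromosome means and shares with two-sided exact permutation tests within models (numpy 2.4.6, Python 3.11.15), all with a threshold of 0.05. The steps were tested on simulated data. Probe noise of all 45 arrays was 0.159 to 0.476.

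Members, gene lists and tests were chosen with earlier results of these data known. Named were all chromosome 11 landmarks with a probe, of which those with values are a selection by role, the 4 cancer genes with the largest difference in size or those whose bin passed, and the 6 bins with the smallest p that do not adjoin. Other genes and tumors were named after their values were seen. Genes carry the files' names, matched to RefSeq symbols. Sphk1, Cbx8, Cdkn2b, Birc2 and Palb2 had no probe under their names. Exons and introns are not given because no annotation of mm8 was used here. The labels' design text gives 5 to 6 tumors per model, but 9 arrays are labelled MMTV-PyMT, and all were used. Alternatives covered background correction, centring, loess, filters, bin size, batch, thresholds, arrays in doubt and single arrays left out.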

Additional observations from a re-analysis of the deposited data

Results flagged for a closer look

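The gap of 1 tumor to its group was large in 4 of 30 groups and measures examined with Dixon's ratio, which chance passes in about 1 of 20 groups. The probe noise of PyMT_11570, 0.445, stood above the other 3 MMTV-PyMT tumors with the distal gain, of which the highest was 0.297, and that of PyMT_11567, 0.473, above the other 4 without it, of which the highest was 0.256. These 2 arrays share a slide. Among the 4 MMTV-Myc tumors with the gain, Myc_04004021 had the highest noise, 0.444 against 0.208 for the next, and the highest altered share, 7.33% against 0.410%.

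From 80 to 40 Mb before the region, the mean of the MMTV-PyMT tumors with the gain was 0.344, with all 4 above 0, and that of the BRCA1-/-;p53+/- tumors was -0.261, with all 3 below 0. This difference between the models was not tested.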

How the results depend on the processing

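With the dyes as labelled the signs of log2 ratios turned, so that the differences were -0.268 for chromosome 15, -0.0895 for chromosome 3, -0.0987 for proximal chromosome 11 against MMTV-Myc and -0.345 for proximal chromosome 11 of MMTV-PyMT against BRCA1-/-;p53+/- tumors. Under normexp background correction 6 tumors had the gain (PyMT_11570 at 0.0668 and Wnt_4635 at -0.0531 fell below the threshold). With the 8 tumors kept as the group, 0 chromosomes were called under it, chromosome 15 differed by 0.179 (adjusted p = 0.104, exact permutation test), chromosome 3 by -0.00301 and the altered share by 7.12 points. At a threshold of 0.3, 7 tumors had the gain, without Wnt_4635. The cause of these changes was not tested.

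Bins called outside chromosome 11, 0 in all 40 tumors, numbered 2 when adjusted with those of chromosome 11 (27 were called in all, the others on chromosome 11, where values that selected the tumors raise the number that can pass), 45 with array weights, 1 within BRCA1-/-;p53+/- and 67 in the models with both kinds. In alternatives of that smaller set, chosen after seeing the data, 0 were called with normexp, 52 were called without Wnt_4635, 74 without PyMT_11570, 57 without both, 73 with density peak centring, 68 with loess, 78 with scan date as a factor and 15 to 83 without single tumors. Leaving out in turn the 19 tumors of the models with both kinds (the other 21 were not left out) gave 0 bins in the fit of all models and 0 to 1 bins that differed between models (1 without Brca_14, Brca_54 or Wnt_4675). Chromosomes called were 2 with probes well above background, 2 with medians of probes (7 and 15), 3 with means of bins (7, 10 and 15), 0 within model and scan date, 0 within model and slide, and 1 to 3 without single tumors. Chromosome 15 differed by 0.334 within scan date, 0.343 within slide (neither passed adjustment) and 0.241 to 0.295 without single tumors. Chromosome 3 passed with probes well above background (0.0916, adjusted p = 0.0443, exact permutation test) and ranged from 0.0390 to 0.0986 without single tumors. The altered share differed by 21.9 points within slide and 14.5 to 20.3 without single tumors. Within slide the 12 assignments allow no p under 0.0833 in the exact permutation test, so that comparison could not pass the threshold. From MMTV-Myc the altered share differed by 25.9 with a split statistic over 5 (exact p = 0.0404) and 19.6 to 28.1 without single tumors.

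No paired analysis was possible because the replicate numbers, which follow accession order, pair no tumors, and tumors were matched only by slide or scan date, as given above. The number of arrays per model, single probes per gene and noise up to 0.476 limit small differences.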

Other observations

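The mean log2 ratio of chromosome X, which enters no comparison above, was -0.025 in PyMt3 and 0.417 in PyMt341, and 0.771 to 1.29 in the other 6 tumors with the distal chromosome 11 gain. The 32 tumors without the gain ranged from 0.752 to 1.74. The sex of the reference DNA is not given in the sources used here.

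Brca_14 and Wnt_4635, from different models, had high values in 2 short stretches of 5 probes each on proximal chromosome 11. From 30267118 to 30435667 the means were 2.08 and 1.56, and from 31004372 to 31710063 they were 1.25 and 0.49. Among the 8 tumors with the gain, the same 2 had the highest values in the bin of Met on chromosome 6. Their autosomal bins correlated with r = 0.20.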
